A study of Rattus norvegicus with 218 samples.

Results

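Fos, Jun, Creb1, Cebpd and Mapk14 are 5 genes of activity and stress signalling that were assayed by quantitative PCR in neurons of the rat dorsal vagal motor nucleus (DMV). They were chosen by symbol, and they made up 5 of the 165 genes on the panel, each with 1 assay. The DMV lies in the brainstem and holds the cell bodies of vagal motor neurons that innervate the heart and gut. NeuN-stained cells were cut by laser from frozen sections of the left and right DMV, singly or in small pools, and their RNA was amplified and measured on a microfluidic PCR chip. All animals were male Sprague Dawley rats. Naive rats had no operation. Per the study's methods sham and RIPC rats (remote ischaemic preconditioning) were both given ketamine/xylazine and had the femoral vessels of both legs exposed, and the vessels were tied and later released in RIPC rats only. The labels put tissue collection at 2.5 h in sham and RIPC rats and give no time for naive rats. In the methods this time follows reperfusion, which sham rats did not undergo.

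Fos and Jun are immediate early genes whose proteins pair as the transcription factor AP-1, and Fos messenger RNA is widely used as a short-lived mark of recent neuronal firing. Creb1 encodes the constitutive factor CREB, which binds cyclic AMP response elements, Fos among its targets, once kinases have phosphorylated it. Cebpd encodes C/EBP delta, a factor of the acute-phase and inflammatory response. Mapk14 encodes p38 alpha, a kinase activated by stress and cytokines, which is regulated mainly by phosphorylation, so its transcript does not report its activity.

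The values are threshold cycles (Ct), where an earlier cycle means more template and no value means no product. A sample was used when at least 25% of the 168 assays gave a product, which left 186 samples of 10 rats, 98 single neurons and 88 pools. The naive group held 57 single neurons and 24 pools of 3 rats, the sham group 16 and 46 of 4 rats, and the RIPC group 25 and 18 of 3 rats. The rats contributed unequally. Naive replicate 3 gave 54 of the 57 naive single neurons, naive replicate 1 gave no single neuron and 3 pools, and RIPC replicate 3 gave 2 pools. The labels name 4 sham rats, whereas the protocol text gives 3 animals per group, and all 4 were used. Of the 10 starting codes of sample titles, 1 occurs in more than 1 rat, in a single right neuron labelled RIPC replicate 3 whose title is of the kind otherwise seen in RIPC replicate 2, so its label is in doubt. Yield, the number of assays with a product, ran from 43 to 149 per sample. In pools its mean over rats was 85.2 ± 14.0 (SD, n = 3) for naive, 94.6 ± 6.54 (SD, n = 4) for sham and 86.1 ± 18.2 (SD, n = 3) for RIPC. The rat is the replicate throughout.

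The neuronal markers Camk2a, Scn2a and Rgs4 were detected in 96.9%, 95.9% and 86.7% of single neurons, and the cholinergic markers Chat and Ache in 69.4% and 90.8%. Gfap, which defines astrocytes and was the panel's only listed marker of another cell type, was detected in 80.6% of single neurons and 77.3% of pools. Among pools, the naive ones held Gfap in 87.5%, those of sham rats in 78.3% and those of RIPC rats in 61.1%. Single neurons ran in another order, at 93.75% for sham rats, 88% for RIPC rats and 73.7% for naive rats. Its part in the results on the 5 genes was not tested. In a pool, fewer cells that express a gene and less RNA per cell cannot be told apart.

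Detection separated Fos from the other 4 genes. Fos gave a product in 39 of 186 samples (21.0%), Cebpd in 145 (78.0%), Creb1 in 172 (92.5%), Mapk14 in 174 (93.5%) and Jun in 176 (94.6%). Ranked by detection among the 165 genes, Jun was at place 7, Mapk14 at 8, Creb1 at 10, Cebpd at 43 and Fos at 118. A detection share depends on each assay's own sensitivity, which was not measured, so the ranks describe the assays as run. In single neurons the shares were 14.3% for Fos, 70.4% for Cebpd, 88.8% for both Creb1 and Mapk14, and 92.9% for Jun. In pools they were 28.4%, 86.4%, 96.6%, 98.9% and 96.6% in the same order. Every sample held at least 1 of the 5 transcripts. All 5 were found together in 9 of 98 single neurons (9.18%) and 21 of 88 pools (23.9%), and 4 of 5 in 49 single neurons and 55 pools.

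The 54 neurons of naive replicate 3 were the largest set of single cells from 1 rat. Fos was detected in 7 of them, 13% with a 95% Wilson interval of 6.42% to 24.4%. Cebpd was detected in 39 (72.2%, interval 59.1% to 82.4%), Mapk14 in 47 (87.0%, 75.6% to 93.6%), Creb1 in 51 (94.4%, 84.9% to 98.1%) and Jun in 52 (96.3%, 87.5% to 99.0%). These intervals cover the counting error of 1 rat only.

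**Figure D1:**
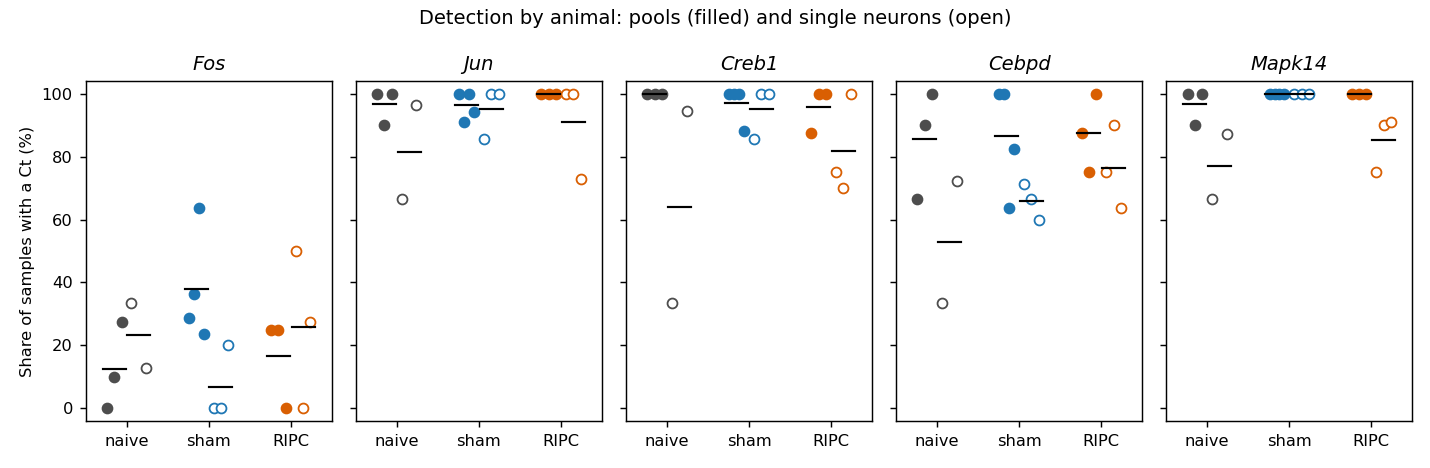
Percent of samples with a detected product (vertical axes) for each of the 5 genes by treatment (horizontal axes). Each circle is 1 rat, filled for pools and open for its single neurons where it had at least 2, and bars are means over rats. Fos runs from 0% to 63.6% in pools while the other genes lie mostly near the top of the axis.

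Fos was most often detected in pools of sham rats, but the treatments overlapped and no difference passed the test. In naive pools it was found in 0 of 3, 1 of 10 and 3 of 11 samples of replicates 1 to 3, which is 0%, 10% and 27.3%. The 4 sham rats gave 2 of 7 (28.6%), 4 of 11 (36.4%), 7 of 11 (63.6%) and 4 of 17 (23.5%). The 3 RIPC rats gave 2 of 8 (25%), 2 of 8 (25%) and 0 of 2. Sham replicate 3 stood highest, sham replicate 4 lay within the range of the other 2 groups, and the values of 0% rest on 3 and 2 pools.

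The mean Fos share in pools was thus 12.4% ± 13.8 (SD, n = 3) for naive, 38.0% ± 17.9 (SD, n = 4) for sham and 16.7% ± 14.4 (SD, n = 3) for RIPC. RIPC minus sham was −21.4 percentage points (SE 14.1, limma adjusted p = 0.994, two-sided exact permutation p = 0.2). Sham minus naive was 25.6 points (SE 14.1, limma adjusted p = 0.932, exact permutation p = 0.114), and RIPC minus naive was 4.24 points (SE 15.1, limma adjusted p = 0.996). With 3 rats against 4 the smallest exact p is 0.0286. Across all 130 genes tested for share in pools, limma called 0 (0%) in each of the 3 comparisons, with 1, 2 and 4 genes at an unadjusted p under 0.05 for RIPC minus sham, sham minus naive and RIPC minus naive. The median difference over the 130 genes was −5.90 points for RIPC minus sham and 7.43 points for sham minus naive, the same signs as for Fos. These comparisons share rats, so they are not independent.

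The Fos difference between RIPC and sham depended on which samples were counted. It was −25.5 points without RIPC replicate 1, −13 points without RIPC replicate 3 and −12.8 points without sham replicate 3. Where at least 50% of assays had to be detected it was −0.87 points (SE 20.5). At that stricter limit RIPC minus naive was 30.6 points (SE 21.9) and sham minus naive 31.5 points (SE 20.5). In single neurons the mean Fos share was 23.1% ± 14.4 (SD, n = 2) for naive, 6.67% ± 11.5 (SD, n = 3) for sham and 25.8% ± 25 (SD, n = 3) for RIPC. Both RIPC minus sham and sham minus naive ran the other way from pools. RIPC minus sham was 19.1 points (SE 14.8) and sham minus naive −16.5 points (SE 16.6) there, with limma adjusted p-values of 0.908 and 0.855. Mean yield in single neurons was 66.2 assays for naive, 67.8 for sham and 74.2 for RIPC rats, highest at 80.5 in RIPC replicate 1, and its part in these values was not tested. The single-neuron shares by rat were 33.3% and 13% in naive replicates 2 and 3, 0%, 0% and 20% in sham replicates 1, 2 and 4, and 50%, 0% and 27.3% in RIPC replicates 1 to 3. The sham values there rest on 15 neurons, of which 1 held Fos.

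Where Fos was detected, its level spanned more than that of the other genes. Level here is −dCt in cycles, the median Ct of the 35 most detected genes of a sample minus the Ct of the gene, so a higher value means more transcript relative to that set. Over the 39 positive samples Fos ranged from −10.95 to 1.13 cycles with a median of −3.15 and an SD of 2.44. The SD was 0.99 for Jun, 1.18 for Creb1, 1.32 for Mapk14 and 1.67 for Cebpd over their own positive samples. The raw Ct of Fos ran from 10.2 to 23.9, and 3 of the 39 values lay above cycle 20, all of them in naive replicate 3.

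In pools the Fos level could be averaged, over at least 2 positive pools, in 7 rats. Sham replicates 1 to 4 had −2.78, −2.01, −2.72 and −3.88 cycles, a mean of −2.85 ± 0.77 (SD, n = 4). RIPC replicates 1 and 2 had −2.42 and −4.06 cycles, and RIPC replicate 3 had none. Naive replicate 3 alone represented the naive group, at −7.69 cycles from pools at −3.91, −8.21 and −10.95, and the single positive pool of naive replicate 2 stood at −2.11. The sham and RIPC values overlapped and the 1 naive rat lay below both. With 4 rats against 1 the exact permutation p for sham minus naive (4.84 cycles) is 0.2, the smallest it can be, and Fos level was not tested by limma for want of naive rats.

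Jun, the AP-1 partner, had the smallest SD of level over samples of the 5. Its level in pools was 0.17, −0.33 and 0.41 cycles in naive replicates 1 to 3, −0.34, −0.51, −0.38 and 0.29 in sham replicates 1 to 4, and 0.27, −0.15 and −1.19 in RIPC replicates 1 to 3. The groups overlapped, and RIPC replicate 3, from 2 pools, was lowest. The means were 0.08 ± 0.38 (SD, n = 3), −0.23 ± 0.36 (SD, n = 4) and −0.36 ± 0.75 (SD, n = 3) cycles. RIPC minus sham was −0.13 cycles (SE 0.53, limma adjusted p = 0.977) and sham minus naive −0.32 cycles (SE 0.53, adjusted p = 0.984). For level in pools limma called 0 of 99 genes (0%) in each comparison, with 3 genes for RIPC minus sham, 0 for sham minus naive and 4 for RIPC minus naive at an unadjusted p under 0.05. Jun was found in 90% to 100% of the pools of every rat, too close to all for a test of its share. Over single neurons the SD of its level was 0.97 cycles, and 4 of 110 genes had a smaller one. Jun, Creb1 and Mapk14 are among the 35 genes that set the scale, and the part of this in their SDs was not tested.

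The mean level of Creb1 in pools was lower in RIPC than in sham or naive rats, and 1 rat set that difference. By rat it was −0.39, 0.15 and −0.21 cycles in the naive rats, 0.13, −0.28, −0.72 and −0.83 in the sham rats, and −0.28, −0.72 and −3.46 in the RIPC rats. The last of these was RIPC replicate 3 with 2 pools, and the other RIPC rats lay within the sham range. RIPC minus sham was −1.06 cycles (SE 0.71, limma adjusted p = 0.977) with that rat and −0.04 cycles (SE 0.55) without it. RIPC minus naive was −1.33 cycles (SE 0.75, limma adjusted p = 0.931) with it and −0.34 cycles (SE 0.58) without it. In the 11 single neurons of the same rat, all of which held Creb1, the mean level was −1.06 cycles, the lowest of the 7 rats with at least 2 positive neurons, whose values ran from −1.06 to 0.81. Creb1 was detected in 87.5% to 100% of the pools of every rat.

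Cebpd was detected in 66.7%, 90% and 100% of the pools of the naive rats, in 100%, 100%, 63.6% and 82.4% for the sham rats, and in 87.5%, 75% and 100% for the RIPC rats. The group means were 85.6% ± 17.1 (SD, n = 3), 86.5% ± 17.4 (SD, n = 4) and 87.5% ± 12.5 (SD, n = 3), and no difference exceeded 2 percentage points. The SE of RIPC minus sham, 14.1 points, leaves room for differences of either sign. Its level in pools was −1.90, −1.71 and −2.08 cycles in naive rats, −2.39, −1.53, −3.63 and −3.60 in sham rats and −0.94, −3.50 and −2.01 in RIPC rats. Sham replicates 3 and 4 and RIPC replicate 2 lay below the rest, and all groups overlapped. Sham minus naive was −0.89 cycles (SE 0.70, limma adjusted p = 0.984, exact permutation p = 0.286) and RIPC minus sham 0.64 cycles (SE 0.70, adjusted p = 0.977). The latter was −0.06 cycles without RIPC replicate 1 and reached 1.30 with another rat left out.

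Mapk14 was found in every pool but 1. Its level in pools was −1.34, −1.44 and −0.73 cycles in naive rats, −0.84, −1.07, −1.16 and −0.41 in sham rats, and −0.26, −0.75 and −1.48 in RIPC rats. The groups overlapped, naive and sham rats through naive replicate 3 alone. RIPC minus sham was 0.04 cycles (SE 0.51) and sham minus naive 0.30 cycles (SE 0.51), with limma adjusted p-values of 0.977 and 0.984. The latter was 0.12 cycles without sham replicate 4 and 0.49 without naive replicate 3. In single neurons the Mapk14 share was 66.7% and 87.0% in the 2 naive rats, 100% in the 3 sham rats and 75%, 90% and 90.9% in the 3 RIPC rats. The sham values rest on 15 neurons. Without the neuron of doubted label RIPC replicate 3 also had 100%, and RIPC minus sham was −11.7 points (SE 14.1). Gfap was also detected most often in sham and least often in naive single neurons, and its part in the Mapk14 values was not tested. Sham minus naive was 23.1 points (SE 15.3, limma adjusted p = 0.798) and RIPC minus sham −14.7 points (SE 13.7, adjusted p = 0.908). The exact permutation p was 0.1 for both, the smallest that such groups allow. That test was run for the 5 genes only, so how many other genes reach this value is not known. Limma called 0 of 122 genes (0%) for share in single neurons in each of these comparisons, with 5 and 7 genes at an unadjusted p under 0.05.

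For the other 3 genes the single neurons added little. Jun was found in 66.7% and 96.3% of the neurons of naive replicates 2 and 3, in 85.7%, 100% and 100% for sham replicates 1, 2 and 4, and in 100%, 100% and 72.7% for RIPC replicates 1 to 3. Creb1 was found in 33.3% and 94.4%, in 85.7%, 100% and 100%, and in 75%, 70% and 100% of them in the same order. Cebpd was found in 33.3% and 72.2%, in 71.4%, 66.7% and 60%, and in 75%, 90% and 63.6%. Without the neuron of doubted label RIPC replicate 3 had 80% for Jun, 100% for Creb1 and 70% for Cebpd. The low naive values all came from the 3 neurons of naive replicate 2. The largest difference was for Creb1, 31.3 points for sham minus naive (SE 17.3, limma adjusted p = 0.789). In level, Jun stood at 0.04 ± 0.07 cycles in single neurons of the 2 naive rats, −0.13 ± 0.54 in those of the 3 sham rats and −0.42 ± 0.48 in those of the 3 RIPC rats (mean and SD over rats), and Mapk14 stood at −1.57 ± 0.12, −1.02 ± 0.31 and −1.02 ± 0.56. By rat, Mapk14 stood at −1.65 and −1.49 cycles in the naive rats and at −0.74, −1.35 and −0.95 in the sham rats. The RIPC rats spanned −1.51 to −0.42. Sham minus naive was 0.56 cycles for Mapk14 (SE 0.48, limma adjusted p = 0.740, exact permutation p = 0.2), and limma called 0 of 53 genes (0%), with 3 at an unadjusted p under 0.05.

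**Figure D2:**
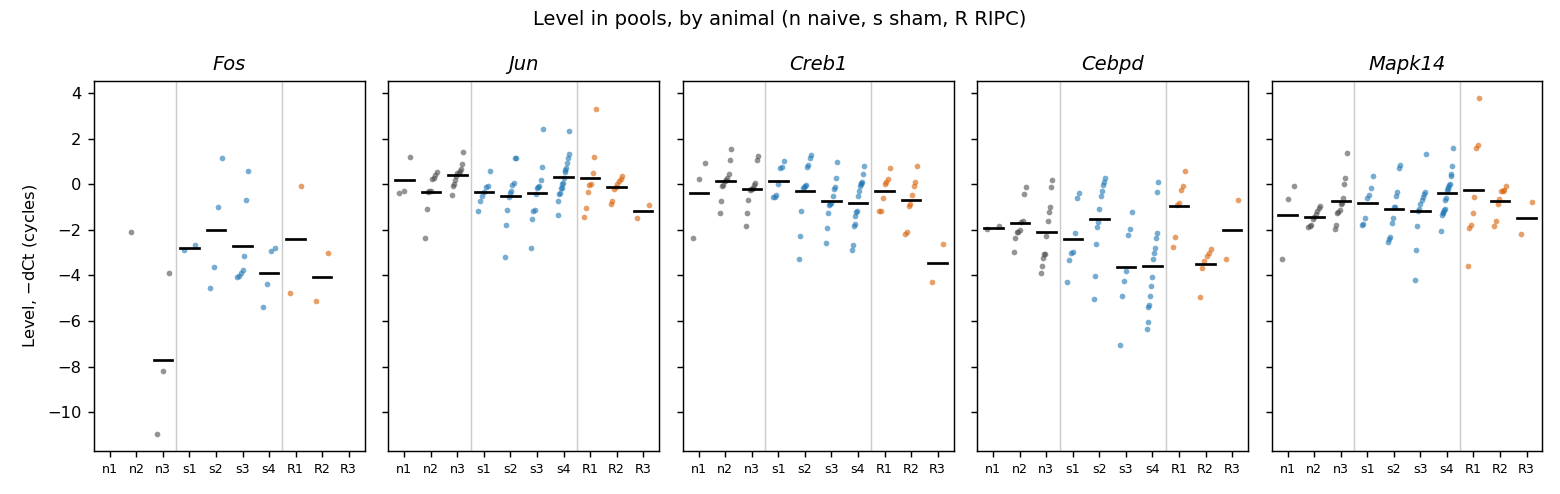
Level in pools (−dCt in cycles, vertical axes) of each gene by rat (n, naive; s, sham; R, RIPC, with the replicate number). Points are pools and bars are the means of rats with at least 2 positive pools. The groups overlap for Jun, Creb1, Cebpd and Mapk14, RIPC replicate 3 stands at −3.46 cycles for Creb1, and the 1 naive value for Fos stands at −7.69.

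The left and right DMV were compared within each of the 9 rats that had at least 2 samples of both sides. Fos was the most variable gene between the sides. Its share on the left minus the right was 50 and 41.7 points in sham replicates 3 and 4, 11.8 in naive replicate 3, 0 in sham replicate 2 and RIPC replicate 1, −2.38 in naive replicate 2, −11.9 in RIPC replicate 3, −25 in sham replicate 1 and −33.3 in RIPC replicate 2. It was higher on the left in 3 rats and lower in 4, with a mean of 3.43 points (SE 7.35, limma adjusted p = 0.977). In pools alone the mean was −8.82 points (SE 11.5). By treatment, Fos was found in 19.0% of left and 10.3% of right naive samples, 39.4% and 17.2% of sham samples, and 12.5% and 31.6% of RIPC samples. A test of whether the side difference varied with treatment gave F = 1.87 (limma p = 0.170, adjusted p = 0.997), and that test called 0 of 133 genes (0%), with 3 at an unadjusted p under 0.05. The side shares are sums over samples, and among sham rats replicate 1 ran opposite to replicates 3 and 4.

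The other 4 genes differed little in share between the sides, with means of 2.71 points for Jun, 4.72 for Creb1, 4.89 for Cebpd and −1.65 for Mapk14 and standard errors of 5.87 to 6.44. In level, Mapk14 was higher on the left in 7 of 9 rats, by 1.24 cycles in sham replicate 3, by 0.02 to 0.55 in 6 others, and at −0.10 and −0.19 in sham replicates 1 and 2. Its mean difference was 0.32 cycles (SE 0.20). The two-sided exact sign-flip permutation gave p = 0.0391 and limma p = 0.136, with an adjusted p of 0.929. The mean was 0.24 cycles (SE 0.21) without sham replicate 3 and ran from 0.13 with undetected samples filled in at 1 cycle beyond the highest Ct to 0.55 in raw Ct. In pools alone it was higher on the left in 7 of 8 rats, by 0.41 cycles on average (SE 0.28, exact permutation p = 0.0703). Jun, Creb1 and Cebpd had mean left minus right levels of −0.19 (SE 0.26), −0.26 (SE 0.24) and −0.37 cycles (SE 0.33). In share, limma called 0 of 133 genes (0%) between the sides with 6 at an unadjusted p under 0.05, and in level 0 of 108 (0%) with 2.

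Single neurons and pools of the same rat could be compared in 8 rats. The mean share was lower in single neurons for each of the 5 genes, as for most of the panel, where 12 of 133 genes (9.02%) were higher. Of the 5 only Cebpd passed the test, beside 17.3% of all genes. Cebpd was detected in 66.5% ± 16.2 of single neurons against 91.9% ± 9.73 of pools (SD, n = 8 rats), a difference of −25.3 points (SE 8.27, limma adjusted p = 0.0451, exact sign-flip permutation p = 0.0234). It was lower in single neurons in 7 of 8 rats, with differences of −56.7 to −12.5 points, and higher by 15 points in RIPC replicate 2. Of 133 genes tested, limma called 23 (17.3%), and the median difference of all 133 was −14.9 points. The call for Cebpd was lost without the 1 neuron of doubted label (−24.5 points, adjusted p = 0.0515). It did not survive the loss of 6 of the 8 rats taken singly, since without naive replicate 2 it was −20.8 points (adjusted p = 0.111) and without naive replicate 3, RIPC replicate 3 or sham replicates 1, 2 and 4 the adjusted p was 0.0640 to 0.109. The count of called genes moved as well, from 5 without sham replicate 1 to 57 without RIPC replicate 1.

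The share in single neurons minus that in pools was −14.7 points for Creb1 (SE 8.78, limma adjusted p = 0.235), −10.0 for Mapk14 (SE 7.17, adjusted p = 0.306), −6.70 for Jun (SE 7.45, adjusted p = 0.545) and −4.02 for Fos (SE 9.03, adjusted p = 0.728). Mapk14 was lower in 5 rats and equal in the remaining 3, in which every single neuron and every pool held it. Fos was higher in single neurons of 3 rats and lower in 5, with differences from −36.4 to 27.3 points. In level, no gene of 83 was called between sample types by limma (0%), with 7 at an unadjusted p under 0.05. The differences were 0.00 cycles (SE 0.22) for Jun, 0.47 (SE 0.41) for Creb1, 0.49 (SE 0.55) for Cebpd and −0.29 (SE 0.27) for Mapk14. All 4 moved with the scale. In raw Ct Jun stood at −1.26 cycles (SE 0.43, limma adjusted p = 0.0562) and Mapk14 at −1.50 (SE 0.47, adjusted p = 0.0537), and Creb1 and Cebpd took the opposite sign, at −0.70 and −0.89 cycles.

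**Figure D3:**
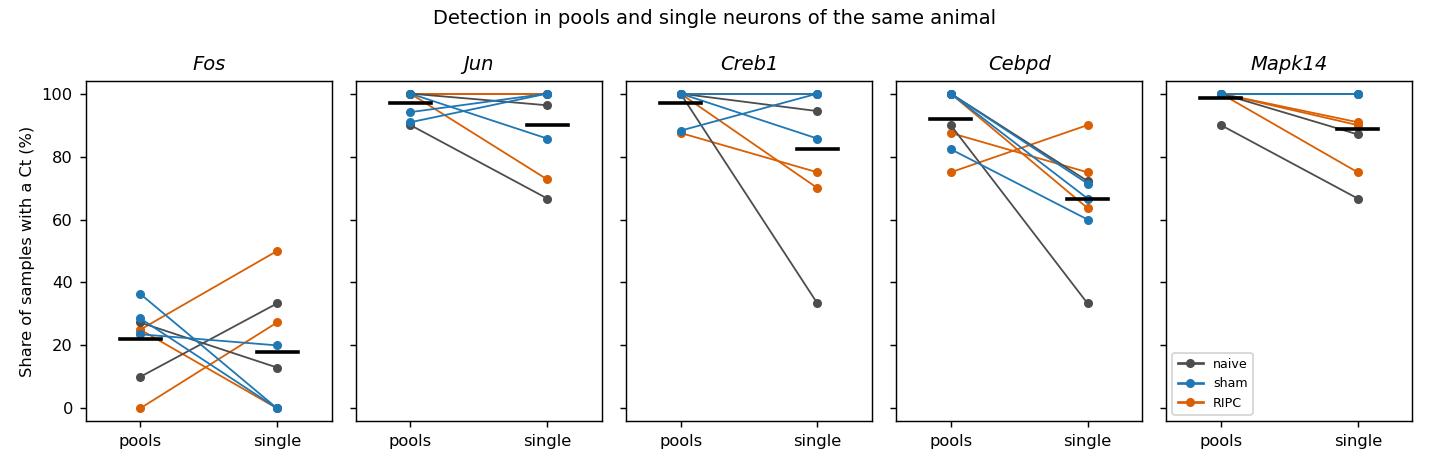
Percent of samples with a product in pools and in single neurons of the same rat (lines join the 2 values of a rat, coloured by treatment, and black bars are means over the 8 rats). Cebpd falls from pools to single neurons in 7 of 8 rats, while the lines for Fos cross.

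Detection was more frequent at higher yield, counted over the other 167 assays, for all 5 genes in single neurons and most widely for Fos. Fos was detected in 2 of 50 single neurons with 41 to 69 other products (4%), 5 of 39 with 70 to 97 (12.8%) and 7 of 9 with 98 or more (77.8%). In pools the figures were 0 of 16, then 10 of 31 (32.3%) and 15 of 41 (36.6%). The 0 of 16 allows a share of up to 18.75%, taken as 3 divided by the number of pools, with pools counted as if independent. The top class of single neurons holds 9 cells and the lowest class of pools 16, so these shares are poorly known. Cebpd was detected in 62%, 76.9% and 88.9% of single neurons and in 75%, 78.8% and 97.4% of pools of these classes. Creb1 and Mapk14 were each found in 84%, 92.3% and 100% of single neurons of the 3 classes, and Jun in 88%, 97.4% and 100%. In pools Creb1 was found in 81.25% of the lowest class and Mapk14 in 93.75%, both in all pools above it, and Jun in 93.75%, 100% and 94.9%. These are descriptions over samples that share rats. With mean yield as a covariate, the Fos difference between RIPC and sham pools was −19.1 points (SE 13.2, limma adjusted p = 0.982).

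Adding cells to a pool was not matched by a steady rise in Fos, which was detected in 14.3% of single neurons, 33.3% of pools of 2 cells, 21.4% of 3, 17.4% of 4 and 35.9% of 5 or more. The pools of 2 and 3 cells number 12 and 14. Repeat runs of 5 single neurons showed how far 1 measurement can be trusted. The call of detected or not was the same in both runs for Jun in 5 of 5, for Creb1 and Mapk14 in 4 of 5 and for Cebpd in 3 of 5. For Fos 4 of 5 neurons had no product in either run, and the 1 product seen did not repeat. Where both runs gave a product, the median difference in raw Ct was 0.23 cycles for Creb1, 0.94 for Jun, 2.41 for Mapk14 and 2.62 for Cebpd, with 4.18 cycles the largest, for Mapk14. The lowest Fos level in a single neuron, −8.94 cycles, came from a repeat run at cycle 23.6 of a neuron whose other run gave no Fos.

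**Figure D4:**
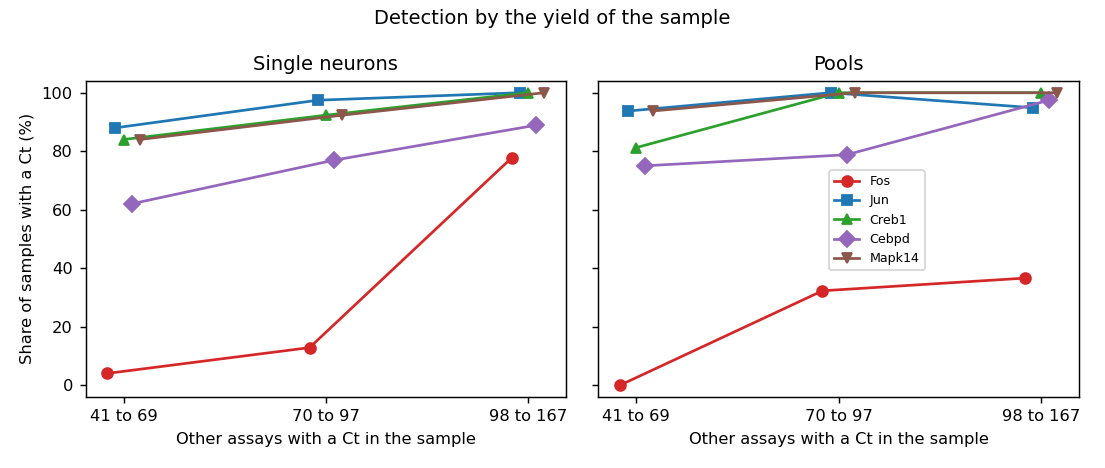
Percent of samples with a product for each gene (vertical axes) by the number of other assays detected (horizontal axes, 3 classes), in single neurons and in pools. Fos climbs from 4% to 77.8% in single neurons, where the top class holds 9 cells.

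Levels of the 5 genes were next correlated over samples, each centred on the mean of its own rat and sample type. Creb1 and Cebpd were positively correlated, with Pearson's r = 0.51 over 136 samples that held both. The value was 0.49 in single neurons and 0.53 in pools, with Spearman's rho of 0.46 in both. It was positive in each of the 9 rats with enough samples, from 0.10 to 0.84 with a median of 0.54. Computed by treatment, r was 0.27 in naive (n = 59), 0.65 in sham (n = 47) and 0.55 in RIPC samples (n = 30), and the difference between treatments was not tested. Leaving out 1 rat at a time gave 0.48 to 0.60. All samples of a rat share their source and all genes of a sample share its yield, so these values describe the samples and carry no p. Among 5492 pairs of panel genes with enough shared samples the median r was 0.03, 5% lay below −0.30 and 5% above 0.41, and 1.84% exceeded that of Creb1 and Cebpd.

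Among the pairs without Fos, Jun and Mapk14 had the other positive value, r = 0.29 over 165 samples, positive in 8 of 9 rats and exceeded by 12.7% of gene pairs. It was 0.57 in sham samples against 0.17 in both naive and RIPC samples, again without a test. Rats of 1 treatment differed, at −0.04, 0.53 and 0.50 in RIPC replicates 1 to 3 and 0.15, 0.46, 0.81 and 0.55 in sham replicates 1 to 4. Naive replicates 2 and 3 stood at 0.17 and 0.15. The remaining pairs of these 4 genes ran below 0, at −0.29 for Jun and Creb1, −0.21 for Cebpd and Mapk14, −0.18 for Jun and Cebpd and −0.16 for Creb1 and Mapk14. Rats differed in sign, since of 9 rats 6 were negative for Jun and Creb1, 7 for Cebpd and Mapk14, 6 for Jun and Cebpd and 5 for Creb1 and Mapk14. Leaving out 1 rat gave −0.34 to −0.21, −0.26 to −0.10, −0.22 to −0.09 and −0.22 to −0.08 in the same order. The negative signs depended on the centring. Centred on genes other than the 5, the values stayed negative but lay nearer 0, such as −0.17 in place of −0.27 for Jun and Creb1 and −0.03 in place of −0.10 for Creb1 and Mapk14, both in single neurons. In raw Ct, which keeps the differences in yield between samples, every pair was positive, at 0.33 for Jun and Creb1, 0.14 for Jun and Cebpd, 0.40 for Creb1 and Mapk14, 0.14 for Cebpd and Mapk14 and 0.69 for Jun and Mapk14. Creb1 and Cebpd were positive either way, with 0.58 in single neurons and 0.64 in pools in raw Ct. The Fos pairs rested on 30 to 36 samples and ran from −0.09 with Creb1 through 0.03 with Cebpd and 0.08 with Jun to 0.33 with Mapk14.

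**Figure D5:**
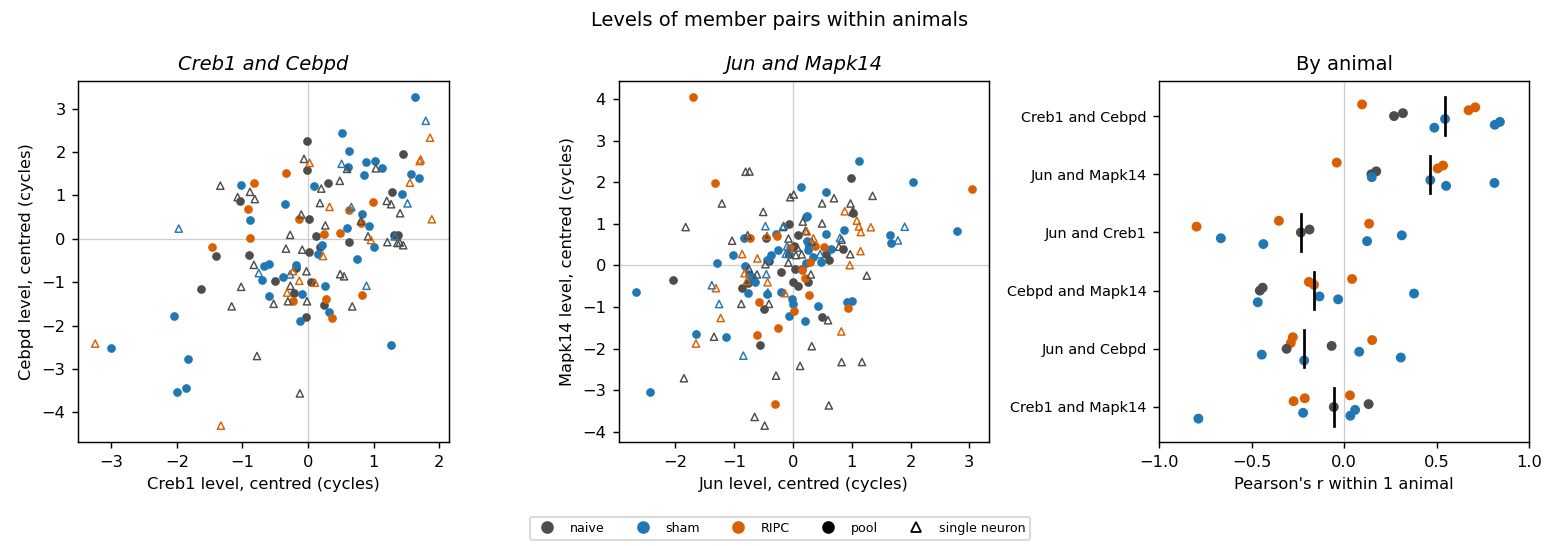
Levels of Creb1 against Cebpd (left) and Jun against Mapk14 (middle), in cycles of −dCt centred on the mean of each rat and sample type (circles, pools; triangles, single neurons). The right panel gives Pearson's r within each of the 9 rats with the median as a bar, where Creb1 and Cebpd are positive in all 9.

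Detection was also compared between genes of the same sample. The phi coefficient, a correlation of yes and no calls, lay between −0.04 and 0.29 for the 10 pairs in single neurons and in pools. Jun, Creb1 and Mapk14 were found in most samples, which leaves few absences for phi to rest on. The highest value was for Creb1 and Cebpd in pools, where 75 of 88 held both and 2 held neither. Fos and Jun, the AP-1 pair, were found together in 13 of the 14 single neurons that held Fos, and Jun was found in 91 of all 98.

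The genes whose level ran most like a member's, by r over at least 40 shared samples, differed between members. For Creb1 they were Chrm1 (0.59, n = 147), a muscarinic receptor, then Cebpd, then Hrh2 (0.48, n = 141), a histamine receptor. For Cebpd they were Hrh2 (0.70, n = 127), Chrm1 (0.70, n = 132) and E2f1 (0.61, n = 108), a cell cycle transcription factor. Jun ran with the glycolytic genes Gapdh (0.58, n = 174) and Ldha (0.44, n = 175) and with the serotonin receptor gene Htr7 (0.46, n = 42). Mapk14 ran with Sstr3 (0.50, n = 44), Rgs2 (0.36, n = 120) and Htr7 (0.35, n = 40), encoding a somatostatin receptor, a regulator of G-protein signalling and the same serotonin receptor. For Fos too few samples shared a level with other genes, and by phi over the 186 samples the genes detected most like it included Chrna4 (0.42), a nicotinic receptor subunit, and Adra1b (0.32), an adrenergic receptor. By the same measure Cebpd came closest to Chrm1 (0.41), Chrm5 (0.41) and Htr1b (0.40), Creb1 to Nr3c1 (0.35), Cckbr (0.29) and Hrh4 (0.28), and Mapk14 to Kcnn4, Htr3b and Srebf1 (0.24, 0.24 and 0.23). The genes close to Jun included Oxtr (0.23) and Chrm2 (0.21).

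Of 77 further genes listed for activity and stress signalling, 10 were on the panel. The AP-1 relatives differed, since JunD was detected in 83.7% of single neurons and 70.5% of pools while FosB was detected in 1 of 98 single neurons and 0 of 88 pools. The latter allows a share of up to 3.41%, again with pools counted as if independent. Among the C/EBP factors Cebpa was found in 59.2% of single neurons and 76.1% of pools, and Cebpb in 12.2% and 14.8%. Crebbp, the coactivator that binds phosphorylated CREB, was found in 98.0% and 88.6%, and Camk2a, a calcium-dependent kinase, in 96.9% and 93.2%. Il6r, the interleukin-6 receptor gene, was found in 70.4% and 90.9%, Ntrk2, the BDNF receptor gene, in 37.8% and 46.6%, and the cyclooxygenase genes Ptgs1 and Ptgs2 in 12.2% and 25% and in 8.16% and 5.68%. Of these genes 8 could be tested for share and 5 for level between treatments in pools, 7 and 6 between sides, and 7 and 4 between sample types. The single call was Cebpa, detected less often in single neurons than in pools, 1 of the 7 tested there against 17.3% of all genes. All other comparisons gave 0 calls in limma, as did all genes between treatments and sides.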

How the data were processed

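Single DMV neurons and pools were profiled by quantitative PCR with an intercalating dye on a BioMark instrument (chip model not given in the sources used). The authors deposited a table of non-normalized Ct values (unit: a score in cycles, in which an earlier cycle means more template), with empty cells where no product was called. The highest deposited Ct was 27.0. Repeat runs of 5 samples were averaged with their other run. The study's methods give a limit of 50% of the assays per sample. A limit of 25% was used here, since 50% leaves 84 of the 218 columns, fewer than the study describes, and 25% leaves 190. The 50% limit was tried as an alternative.

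Each rat gave 1 value per gene, either the share of its samples with a product or the mean −dCt over at least 2 positive samples. The labels name 10 rats, 4 of them sham, where the study's methods give 3 per group. A p-value thus measures the spread between rats, and shares from few samples vary more. In limma that spread, and with it each SE given here, was moderated by eBayes toward a value shared by all genes tested. A limma SE or p is therefore not set by the gene's own spread alone, while the exact permutation tests use only the gene's own values. Treatments were compared on pools over all rats with limma 3.58.1 in R 4.3.3 (lmFit and eBayes, two-sided, Benjamini-Hochberg over all genes tested, called at an adjusted p under 0.05), for genes detected in 10% to 95% of samples for shares. Sides and sample types were compared on within-rat differences. Exact permutation tests were run over rats. The code was tested on simulated data. The 5 genes, the pathway and marker lists and the tests were chosen with earlier results of these data known. Text names the 5 genes, their 3 closest genes by level and by detection, the pathway genes on the panel and any gene on which a result turns, and 2 of the closest genes by detection are not reported here. Alternatives were the limit, centring, undetected values, weights, sample type, repeat runs, each rat left out, the methods' t-test over pools and a replicate block. Numbers 1 to 4 of the rats only name them, since of 18 correlations, for 9 pairs of same-numbered rats by share and by level, 9 were above 0.1 (range −0.47 to 0.37). No comparison of the authors' own was used.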

Additional observations from a re-analysis of the deposited data

Results flagged for a closer look

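Of 36 sets of 4 to 9 rats checked by Dixon's test for a value far from the others, 3 had one, and chance flags about 1 in 20 such sets. Jun was detected in a larger share of left than of right samples of RIPC replicate 3, by 42.9 points, with the next rat at 10. Without the single neuron of doubted label in that rat the difference was 33.3 points, and its gap to the next rat, 0.467 of the range, was then below the critical value of 0.493. Creb1 was detected in 88.2% of the pools of sham replicate 4, 15 of 17, and in 100% of those of the other sham rats. In pools alone Mapk14 was detected less often on the left in naive replicate 2, at −20 points, with all other rats at 0. In these last 2 sets the other rats had equal values, a case that the rate of 1 in 20 does not describe.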

How the results depend on the processing

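Of 848 differences for the 5 genes under alternative settings, 750 kept their direction and, where tested, their side of the threshold, whatever their size, 7 lost the call (all Cebpd between sample types, at −20.8 to −25.7 points with 1 rat left out and −24.5 without the neuron of doubted label) and 78 changed sign, 16 of them untested shares or levels. No difference that changed sign had passed the test. Untested differences moved by more than the spread in 17 cases, among them Fos level in pools with undetected samples filled in, at 3.25 cycles for sham minus naive, −2.41 for RIPC minus sham and 0.84 for RIPC minus naive.

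Among tested shares, in points, single neurons in place of pools gave Fos 19.1 for RIPC minus sham and −16.5 for sham minus naive. Pools only gave left minus right of −8.82 for Fos and −1.11 for Cebpd. For Cebpd the limit of 50% gave −0.45 between sides and −11.9 for sham minus naive, assays detected as a covariate −0.18 for sham minus naive, and weights by number of pools −6.88, −8.33 and −1.45 for sham minus naive, RIPC minus naive and RIPC minus sham. The replicate block gave −0.38 for Cebpd in RIPC minus sham, and on the arcsine scale its RIPC minus sham and RIPC minus naive were −0.067 and −0.046. With 1 rat left out, Cebpd ran from −8.50 to 8.56 for sham minus naive, −7.5 to 9.17 for RIPC minus naive and −6.62 to 7.25 for RIPC minus sham. Fos ran from −1.97 to 12.6 for RIPC minus naive, −2.39 to 8.03 for left minus right and −8.49 to 0.60 for single neurons minus pools, and Mapk14 from −3.94 to 1.71 for left minus right.

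Among tested levels, in cycles, raw Ct gave single neurons minus pools of −0.70 for Creb1 and −0.89 for Cebpd, sham minus naive of 0.23 for Creb1 and 0.079 for Jun, and RIPC minus sham of −0.31 for Mapk14. Undetected samples set 1 cycle beyond the highest Ct gave single neurons minus pools of −1.48 for Creb1 and −2.55 for Cebpd, left minus right of 0.33, 0.26 and 0.17 for Creb1, Cebpd and Jun, RIPC minus sham of 0.46 for Jun and RIPC minus naive of 0.11 for Cebpd. The limit of 50% gave Mapk14 −0.26 for RIPC minus sham and −0.069 for RIPC minus naive, and Jun 0.0016 for left minus right. For RIPC minus sham, Mapk14 was −0.013 with a reference without the 5 genes and −0.0074 in single neurons, and Jun was 0.049 with the replicate block, 0.074 with weights and 0.077 in the methods' t-test over pools. With 1 rat left out, RIPC minus sham ran from −0.53 to 0.32 for Jun, −0.064 to 1.30 for Cebpd and −0.34 to 0.40 for Mapk14, RIPC minus naive from −1.01 to 0.38 for Cebpd and −0.051 to 0.66 for Mapk14, and single neurons minus pools from −0.077 to 0.064 for Jun, which was −1.26 in raw Ct, −0.83 with undetected samples filled in and 0.0069 without the neuron of doubted label. The causes were not tested.

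Over all genes, leaving out 1 rat at a time gave 5 to 57 calls for share between sample types (23 with all rats) and 0 to 1 for level in RIPC minus sham, where Npr3 was called without naive replicate 2. At the 50% limit share in pools for RIPC minus naive gave 1 call (Cacna1g). Level between sample types gave 10 calls in raw Ct and 5 with undetected samples filled in. The methods' t-test over pools, which counts pools of a rat as replicates, gave 16 genes for RIPC minus sham, 10 for sham minus naive and 14 for RIPC minus naive at their unadjusted threshold, and after Benjamini-Hochberg 0, 0 and 1 (Chrm3). Of the 5 genes, 2 were among these at the unadjusted threshold, Fos at 3.46 cycles for sham minus naive (p = 0.0132, adjusted p = 0.557) and Creb1 at −0.78 cycles for RIPC minus naive (p = 0.0334, adjusted p = 0.382). In raw Ct the correlations became 0.33 for Jun and Creb1, 0.14 for Jun and Cebpd, 0.69 for Jun and Mapk14, 0.40 for Creb1 and Mapk14 and 0.14 for Cebpd and Mapk14. With a replicate block limma called 0 genes in all 6 pool comparisons, and Fos share in RIPC minus sham was −26.2 points (SE 16.4, adjusted p = 0.997), so the block changed no call. The alternatives for side by treatment, for the correlations and for the doubted neuron were chosen after seeing the data, and side by treatment could not be fitted without naive replicate 2 or 3.

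Precision is set by 3 or 4 rats per group, by 2 or 3 pools in RIPC replicate 3 and naive replicate 1, and by dropout in single neurons, where a missing product cannot be told apart from a missing transcript.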
